A study of Mus musculus with 32 samples.

Results

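The comparison set CD8 T cells isolated from tumors labelled shMogat1 against CD8 T cells isolated from tumors labelled shCTRL, across all genes. It used 6 of the 32 libraries of the series, chosen by their labels: replicates 1, 2 and 3 labelled shMogat1 and replicates 1, 3 and 4 labelled shCTRL. The tumors of both groups were xenografts of MMTV-PyMT cells, mouse breast cancer cells from the model in which a viral oncogene (PyMT) is expressed from a promoter (MMTV) active in mammary epithelium. Those labelled shMogat1 carried a short hairpin RNA against Mogat1 and those labelled shCTRL a control hairpin, and the labels give the T cells the genotype of the tumor they came from. How the T cells were sorted, the host strain and age, the time of collection and the number of animals are not given in the labels. Whether replicates are separate animals is not said there either, and p-values then measure only the spread between these libraries, which may be technical. The 6 tumor cell libraries of the same knockdown experiment and the 9 CD8 T cell libraries of a time course (tumors of 2, 3 and 4 weeks) were used to describe where the genes of this comparison were otherwise expressed.

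CD8 T cells recognise peptides on MHC class I molecules and kill by releasing perforin, which opens the target membrane, and granzymes, proteases that trigger death inside the target. In tumors, lasting stimulation moves them toward exhaustion, a state with high levels of inhibitory receptors such as PD-1, TIM-3 and LAG-3. A stem-like pool that expresses the transcription factor TCF-1 (Tcf7) renews these cells, and naive and memory cells share with it the homing receptor CCR7 and the interleukin-7 receptor. Mogat1 encodes monoacylglycerol acyltransferase 1, an enzyme that makes diacylglycerol on the way to stored fat.

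Mogat1 itself was at 0.208, 0.286 and 0.211 TPM (reads scaled for gene length and library total, so that each library has the same sum) in the CD8 T cells from shCTRL tumors. It was at 0.515, 0.577 and 0.208 TPM in those from tumors labelled shMogat1. These values correspond to 4, 4 and 4 recovered reads against 8, 8 and 3, under the filter on low values, so no test was made. In the knockdown tumor cells the gene was listed at 0 in the 3 shCTRL libraries and averaged 0.433 TPM in the 3 labelled shMogat1. The listed level of the targeted gene therefore went against the label in the tumor cells, though it was near the floor there too. In the T cells it was too low to check the label. The directions below follow the labels as they stand.

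Replicates of this comparison lay close together. The median standard deviation between replicates on the log2(TPM + 1) scale was 0.051 in the libraries labelled shMogat1 and 0.0665 in the shCTRL libraries, over 8670 genes of 10 TPM or more on average. It was 0.131 to 0.198 in the 3 weeks of the CD8 T cell time course. In whole reads recovered from the steps between TPM values, the variance between libraries labelled shMogat1 was 2.19 to 2.78 times that of pure counting error, against 8.58 to 86 times between replicates of the time course. Replicate 1 of shCTRL stood somewhat apart from replicates 3 and 4, with up to 7.42 times the counting variance and 3.22% of TPM from mitochondrially encoded genes against 4.37% to 4.62% in the other 5 libraries. Correlations of log2 values were 0.991 to 0.993 within groups and 0.972 to 0.975 between them. Small differences could thus pass the test, and main results are also given with the spread estimated over all 15 CD8 T cell libraries of both tables ("with the time course spread" below), an alternative chosen after seeing the data. A gene near 0 in the time course gains little spread from it, and passing is then no further support for that gene.

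Of 13742 genes tested, 5878 (42.8%) passed the threshold (limma, Benjamini-Hochberg adjusted p under 0.05), 2279 (16.6%) of them higher in the cells from tumors labelled shMogat1 and 3599 (26.2%) lower. The 3 libraries of each group did not overlap for 54.8% of the genes tested. A change of at least 2-fold on the log2(TPM + 1) scale, which understates the change of low genes, was seen for 477 genes (3.47%), 112 higher (0.815%) and 365 lower (2.66%). The median log2 difference over all genes tested was -0.05. The split depended on scaling: 38.8% of the called genes were higher as deposited, 50.2% after median-of-ratios rescaling and 54% after quantile normalization. With the time course spread 941 genes passed, 288 higher and 653 lower.

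Genes whose mean over the 6 knockdown tumor cell libraries exceeded their mean over these 6 T cell libraries were marked as possible carry-over of tumor RNA. The mark fell on 6592 of the tested genes (48%), and 727 tested genes had a tumor mean at least 5 times the T cell mean (the strict mark). Of the marked genes 3256 (49.4%) were called, mostly lower (448 higher, 6.8%, and 2808 lower, 42.6%). Of the 7150 unmarked genes 2622 (36.7%) were called, mostly higher (1831 higher, 25.6%, and 791 lower, 11.1%). At least 2-fold, 51 unmarked genes were higher (0.713%) and 79 lower (1.1%), and 61 marked genes were higher (0.925%) and 286 lower (4.34%). Of those 61 marked rises, 60 were also higher in the tumor cells labelled shMogat1, where 54.5% of all genes tested were called, 34.6% higher and 19.9% lower. Of the 286 marked falls, 221 were also lower there.

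The T cell level of tumor-expressed genes had a floor, and that floor differed between the groups. Over 3162 genes of 50 TPM or more in both tumor cell groups, the 1st percentile of the T cell level was 18.7% of the tumor level of the same label in shCTRL and 9.66% under the label shMogat1. At the 5th percentile the values were 22.5% and 12.7%, and at the median 74.8% and 72.2%. In shCTRL 1 of these genes was under 15% of its tumor level, against 270 (8.54%) under the label shMogat1. Among 326 strictly marked genes of 20 TPM or more in both tumor groups that were called in both tables, 143 were lower in the T cells and higher in the tumor cells labelled shMogat1, 0 were the reverse, 175 were lower in both and 8 higher in both. The strict mark selects on a low T cell mean over both groups. Over all 455 strictly marked genes of that tumor level, called or not, the median T cell level was 21.9% of the tumor level in shCTRL and 12.4% under the label shMogat1. Many of them could thus meet the mark only through the libraries labelled shMogat1. The lower T cell direction is tied to that selection and is no further support. The part of this floor in the results was not tested, and in bulk libraries fewer cells of a type and less RNA per cell cannot be told apart. A marked gene is named as such below.

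**Figure D1:**
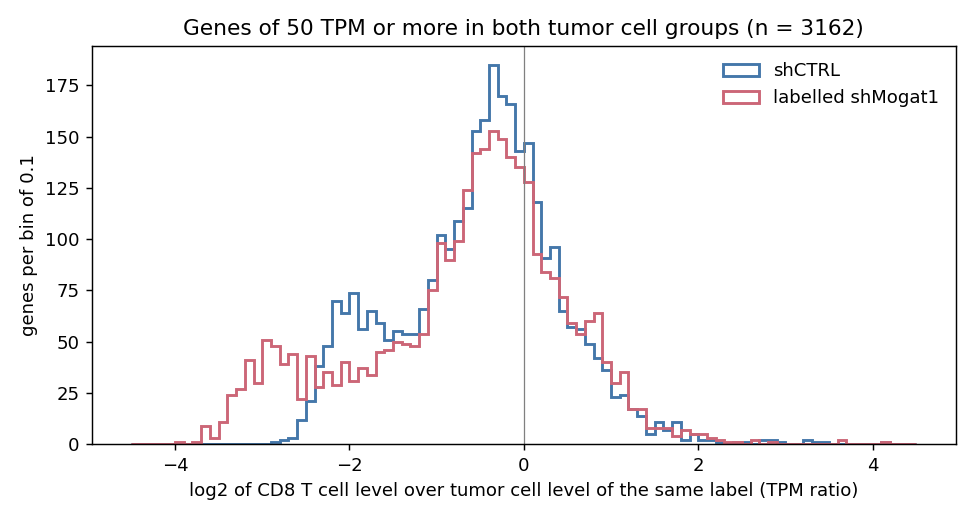
Histogram over 3162 genes of 50 TPM or more in both tumor cell groups, with the log2 ratio of the mean CD8 T cell level to the mean tumor cell level of the same label on the x axis and genes per bin on the y axis, 1 line per label. The low end of the distribution lies further left under the label shMogat1 (1st percentile 9.66% of the tumor level) than in shCTRL (18.7%).

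Markers of other cell types were found in all 6 libraries, some at levels that differed between the groups and some at overlapping ones, and their part in the results was not tested. The 20 macrophage and monocyte genes summed to 5723 to 5908 TPM in shCTRL and 5543 to 5774 under the label shMogat1, against 1257 to 2494 in the CD8 T cells of the time course. The groups overlapped, and of the 20 genes 8 rose and 4 fell, where 16.6% of all genes rose and 26.2% fell. Lyz2, the lysozyme of macrophages, was at 1101 ± 13.8 TPM (SD, n = 3) in shCTRL and 1192 ± 27 under the label shMogat1. The 20 fibroblast and matrix genes summed to 5838 to 5927 TPM and to 3257 to 3407, with 17 falling and 0 rising. The mark covered 14 of the 20, and 42.6% of all marked genes fell. Of the 6 unmarked ones 4 fell, where 11.1% of all unmarked genes fell. The list summed to 17660 to 17990 and 15440 to 15970 TPM in the tumor cells labelled shCTRL and shMogat1, above the T cell level. The defining collagen Col1a1 was not called (188 ± 10.7 against 174 ± 4.21 TPM, adjusted p = 0.108).

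The 28 genes of tumor epithelium went from 229 to 249 TPM in shCTRL to 942 to 959 TPM, with 19 of 23 tested genes higher and 2 lower. B and plasma cell genes summed to 111 to 122 TPM and to 187 to 201, but 3 of 12 rose and 2 fell. Most of the difference in that sum was Jchain, the joining chain of secreted antibodies (44 ± 2.06 and 112 ± 2.08 TPM), and the B cell genes Cd79a and Ms4a1 were not called. Mast cell and basophil genes summed to 40.5 to 42.7 and 21 to 25 TPM, with 5 of 8 falling and 1 rising. Dendritic cell and MHC class II genes summed to 1589 to 1757 and 1963 to 2016 TPM, higher under the label shMogat1, while 6 of 12 fell and 2 rose. The sums of neutrophil genes (41.7 to 45.9 and 38.4 to 43.9 TPM) overlapped, and 0 rose and 0 fell of 6. Natural killer cell genes summed to 566 to 579.9 and 519.5 to 522 TPM. Ncr1, the receptor that defines natural killer cells, was at 2.04, 3.13 and 2.11 TPM in shCTRL and 0.527, 0.854 and 0.378 TPM under the label shMogat1. The 10 genes of CD4 and regulatory T cells summed to 312.1 to 321.8 and 264.9 to 267.7 TPM, and 6 fell and 3 rose. Of the 5 unmarked ones 3 rose and 1 fell. Foxp3, the factor of regulatory T cells, rose from 6.49 ± 0.417 to 10.1 ± 0.682 TPM (adjusted p = 0.000993, and 0.159 with the time course spread), while Cd4 fell from 18 ± 0.763 to 12.9 ± 0.733 TPM and was not called with that spread (adjusted p = 0.675).

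**Figure D2:**
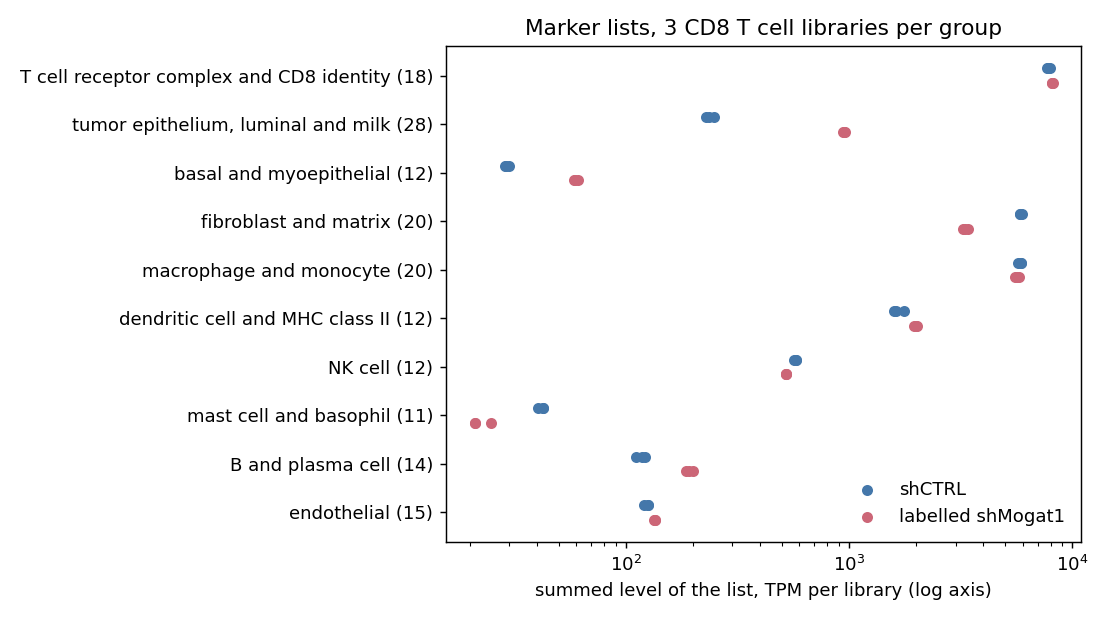
Summed level of each marker list in TPM on a log axis, 1 point per library and 3 CD8 T cell libraries per group. T cell receptor and CD8 genes lie close together (7686 to 7919 TPM in shCTRL and 8121 to 8167 under the label shMogat1), while epithelial genes are higher and fibroblast and matrix genes lower under the label shMogat1.

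Among genes of the T cell receptor complex and of CD8 identity, Cd8a, which encodes a chain of the CD8 coreceptor, was at 680.3, 708 and 704 TPM in shCTRL and 677, 679 and 699.9 TPM under the label shMogat1, with overlapping groups. Cd8b1, the other CD8 chain, was at 647 ± 38 and 669.9 ± 9.84 TPM (adjusted p = 0.364), and Cd3e, part of the receptor complex, at 464 ± 28.2 and 482 ± 3.38 TPM (adjusted p = 0.338). Of 18 tested genes, all unmarked, 6 rose and 1 fell, where 25.6% of all unmarked genes rose and 11.1% fell. Their median log2 difference was 0.05 against -0.05 over all genes. The adhesion receptor Cd2 (0.17, SE 0.034), the zeta chain Cd247 (0.17) and the adaptor Lat (0.14) were among those that rose as deposited. The balance turned with the processing: 1 rose and 8 fell when a share of the tumor profile was subtracted (median -0.10), and 1 and 3 did so without marked genes, 1 and 0 with a replicate block and 0 and 0 with the time course spread. After the subtraction Cd8a was called lower (-0.18, adjusted p = 0.00642) and Lat stood at -0.01.

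The largest T cell change was the near loss of a block of granzymes. Gzmd was at 24.5, 26.2 and 23.6 TPM in the shCTRL libraries and at 0.367, 0 and 0.592 TPM in those labelled shMogat1, which is 330, 256 and 313 recovered reads against 4, 0 and 6. Gzmf was at 36.1, 35.4 and 34.4 TPM against 0.778, 1.96 and 0.837, and Gzmc at 52, 49.5 and 46 TPM against 8.71, 8.88 and 6.13. Every shCTRL library was far above every library labelled shMogat1 for each of these genes.

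Gzme was at 14.9, 12.9 and 16.1 TPM in shCTRL (192, 121 and 205 reads) and listed at 0 in all 3 libraries labelled shMogat1. Gzmg was at 4.17, 6.7 and 4.3 TPM (53, 62 and 54 reads) and likewise listed at 0 in those 3. On the log2 scale Gzmd fell by 4.31 (SE 0.16, adjusted p = 1.41e-06), Gzmf by 4.09 (SE 0.18, adjusted p = 2.98e-06) and Gzmc by 2.51 (SE 0.12, adjusted p = 4.71e-06). Gzme (adjusted p = 3.98e-07) and Gzmg (adjusted p = 2.31e-05) passed as well, and the size of the change fitted for them depends on the pseudocount. Gzmd, Gzme and Gzmg met the filter on low values only through the 3 shCTRL libraries. Their adjusted p-values are thus tied to that selection, and the levels and reads are the description to go by. With the time course spread the adjusted p was 2.32e-07 for Gzmd, 2.32e-07 for Gzme, 6.62e-07 for Gzmg, 0.000168 for Gzmf and 0.0851 for Gzmc, which thus did not pass. Gzmd, Gzme and Gzmg were near 0 in the time course, whose libraries could add little spread for them. Passing with that spread is therefore no further support for these genes, and it does not rank them above Gzmc.

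In CD8 T cells of the time course, Gzmd averaged 0 TPM at week 2 and 0.263 at week 4, Gzme 0.0989 and 0.306, and Gzmg 0 and 0.0586. Gzmf averaged 0.442 TPM at week 2 and 8.16 at week 4. For Gzmd, Gzme and Gzmg the libraries labelled shMogat1 were thus near the level of the time course, and the shCTRL libraries were above it. Gzmc averaged 63.8 TPM at week 2 and 184 at week 4, above both groups of the knockdown set. In the tumor cells of the shCTRL and shMogat1 labels Gzmd averaged 0.149 and 0 TPM and Gzmc 0.406 and 0.824 TPM.

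The block forms a gene cluster on mouse chromosome 14, on the minus strand, together with Gzmb. The sequences below are shown because the genes that fell most resemble each other upstream of their starts. Each is the 250 bases before the gene's start, from RefSeq on GRCm38.p6, 5′ to 3′ on the gene's own strand: Gzmb at chr14:56262335-56262584, Gzmc at chr14:56234658-56234907, Gzmf at chr14:56211408-56211657, Gzmg at chr14:56159580-56159829, Gzmd at chr14:56132594-56132843 and Gzme at chr14:56120626-56120875. Capitals mark the word TGTGGT, bound by RUNX factors, and the word TGACGTCA, the cyclic AMP response element (CRE), on either strand.
Gzmb: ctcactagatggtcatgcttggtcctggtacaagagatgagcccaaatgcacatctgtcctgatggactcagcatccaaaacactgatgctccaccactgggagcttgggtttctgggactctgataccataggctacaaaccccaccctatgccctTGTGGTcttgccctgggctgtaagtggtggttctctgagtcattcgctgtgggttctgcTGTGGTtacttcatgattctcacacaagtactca
Gzmc: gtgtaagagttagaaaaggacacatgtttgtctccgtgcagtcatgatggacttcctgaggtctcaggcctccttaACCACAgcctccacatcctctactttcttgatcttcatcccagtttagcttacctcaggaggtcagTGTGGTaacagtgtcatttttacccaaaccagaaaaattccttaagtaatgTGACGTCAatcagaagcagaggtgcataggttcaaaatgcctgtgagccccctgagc
Gzmf: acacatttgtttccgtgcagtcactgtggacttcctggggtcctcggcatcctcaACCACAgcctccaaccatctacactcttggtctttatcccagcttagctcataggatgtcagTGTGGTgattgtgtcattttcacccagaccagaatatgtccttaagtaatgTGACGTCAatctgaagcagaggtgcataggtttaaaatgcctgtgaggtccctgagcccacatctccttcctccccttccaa
Gzmg: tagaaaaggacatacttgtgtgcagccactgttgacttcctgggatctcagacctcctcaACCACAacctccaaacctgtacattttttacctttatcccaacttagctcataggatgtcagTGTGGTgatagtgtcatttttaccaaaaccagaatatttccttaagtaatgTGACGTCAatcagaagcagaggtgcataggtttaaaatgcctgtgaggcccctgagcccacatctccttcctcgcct
Gzmd: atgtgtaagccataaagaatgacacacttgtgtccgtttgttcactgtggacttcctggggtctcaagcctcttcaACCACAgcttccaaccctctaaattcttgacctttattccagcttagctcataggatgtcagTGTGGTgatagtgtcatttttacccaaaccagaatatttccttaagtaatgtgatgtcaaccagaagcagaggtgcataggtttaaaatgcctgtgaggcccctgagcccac
Gzme: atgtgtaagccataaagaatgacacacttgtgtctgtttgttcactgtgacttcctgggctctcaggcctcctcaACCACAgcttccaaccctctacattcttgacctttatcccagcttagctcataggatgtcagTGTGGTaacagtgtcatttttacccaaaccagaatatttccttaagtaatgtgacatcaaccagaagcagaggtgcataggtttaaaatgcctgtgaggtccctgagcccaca

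Gzmc to Gzmg were 77.2% to 95.2% identical to each other in these 250 bases, and Gzmb was 49.2% to 54% identical to them. Each of the 6 held the RUNX word at 2 places, and 14% of 32851 promoter windows of this length held it at least once (1.27% at 2 or more places). The CRE word stood once each in Gzmc, Gzmf and Gzmg and in 1.55% of all windows. The AP-1 word TGANTCA, read on both strands like the others, was found in Gzmb of the 6 and in 6.75% of all windows. No 2 matches overlap in these sequences, and a match of letters is not shown to be a binding site. The transcripts of Gzmc to Gzmg were 73% to 94.8% identical, highest between Gzmd and Gzme, which also shared the most 50-base windows (12.7%). How reads of shared windows were assigned is not given in the sources used here, and those reads may be split uncertainly. The summed level of Gzmd, Gzme, Gzmf and Gzmg was 79.7, 81.2 and 78.4 TPM in shCTRL against 1.15, 1.96 and 1.43.

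Gzmb, the main granzyme of activated CD8 T cells, fell by less. It was at 244, 256 and 256 TPM in shCTRL and 156, 151 and 157 TPM under the label shMogat1. Its log2 fold change was -0.70 (SE 0.034, adjusted p = 4e-06, and 0.369 with the time course spread). Perforin (Prf1) was at 83.6, 78.5 and 80.6 TPM against 51.3, 48.5 and 47.2, a log2 fold change of -0.71 (SE 0.045, adjusted p = 1.58e-05, and 0.0372 with the time course spread). In both genes every shCTRL library was above every library labelled shMogat1.

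Gzma and Gzmk, granzymes encoded elsewhere in the genome, were not called. Gzma was at 17.1 ± 2.92 and 17.8 ± 0.969 TPM (adjusted p = 0.681) and Gzmk at 7.37 ± 1.47 and 7.22 ± 0.976 TPM (adjusted p = 0.926), with overlapping libraries. Of 20 tested killing genes 11 fell and 1 rose, with a median of -0.15 against -0.05 over all genes. Of the 19 unmarked ones 10 fell and 1 rose. Over all genes 26.2% fell, and over all unmarked genes 11.1% fell. With the time course spread 6 killing genes fell and 1 rose, where 653 of all 13742 genes fell and 288 rose. Gzmd, Gzme and Gzmg are among the 6, and as given above that spread is no further support for them. The count is thus not read as a result about the list. Leaving out replicate 1, 3 or 4 of shCTRL takes Gzmd, Gzme, Gzmg and Serpinb9b below the filter of 1 TPM in 3 libraries, and of 16 genes left without replicate 3, 6 fell and 1 rose.

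**Figure D3:**
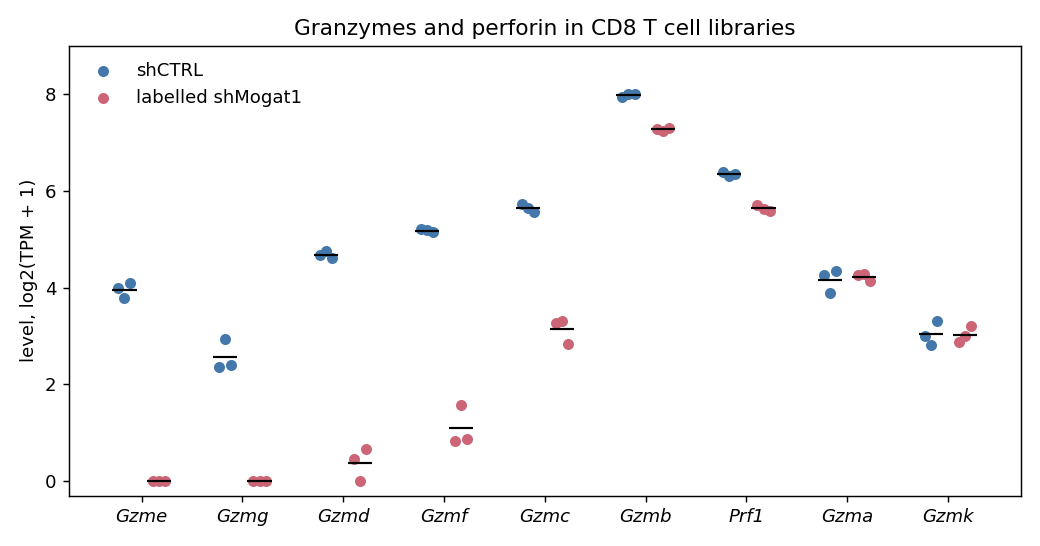
Level of granzymes and perforin on the log2(TPM + 1) scale, 1 point for each of the 3 CD8 T cell libraries per group and a line at their mean. Gzmc, Gzmd, Gzme, Gzmf and Gzmg are far lower under the label shMogat1, Gzmb and Prf1 lower by less (log2 fold changes -0.70 and -0.71), and the groups overlap in Gzma and Gzmk.

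Among secreted products the directions were mixed. Of 18 tested cytokine and chemokine genes 6 rose and 8 fell, where 16.6% of all genes rose and 26.2% fell. With the time course spread 0 of the 18 rose and 1 fell. Ifng (interferon-gamma), by which CD8 T cells act on tumor and myeloid cells, was at 104, 107 and 106 TPM in shCTRL and 132, 121 and 128 TPM under the label shMogat1. Tnf, an inflammatory cytokine, was at 60.3, 57.6 and 64.5 TPM against 45.5, 46.5 and 49.3. Xcl1, a chemokine that draws cross-presenting dendritic cells, was at 200.4, 188 and 177 TPM against 275, 268 and 275. The groups did not overlap for these genes.

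Ifng rose by 0.26 (SE 0.039, adjusted p = 0.00135), Xcl1 rose by 0.53 (SE 0.046, adjusted p = 7.56e-05) and Tnf fell by 0.36 (SE 0.053, adjusted p = 0.0012) on the log2 scale. None of the 3 passed with the time course spread (adjusted p = 0.68 for Ifng, 0.576 for Xcl1 and 0.219 for Tnf). Ccl5, an abundant chemokine of effector cells, was not called (448 ± 28 and 479 ± 15.4 TPM, adjusted p = 0.143). The marked gene Areg, an epidermal growth factor receptor ligand, was at 201, 184 and 180.5 TPM against 77.6, 85.4 and 85.7, and at 1052 and 809 TPM in the tumor cells labelled shCTRL and shMogat1. Areg fell by 1.18, and stood at 1.31, not called (adjusted p = 0.362), when a share of the tumor profile was subtracted. Its subtracted means were low, at 1.54 TPM in shCTRL and 5.5 TPM under the label shMogat1.

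Inhibitory receptors and exhaustion genes split. Of 21 tested 8 rose and 8 fell, with a median of 0.11, where 16.6% of all genes rose and 26.2% fell. The counts were 4 and 8 after subtraction of a share of the tumor profile (median -0.04) and 2 and 1 with the time course spread. Ctla4, a receptor that competes with the costimulator CD28, was at 155, 172 and 173 TPM in shCTRL and 256, 270.3 and 259 TPM under the label shMogat1. Pdcd1, which encodes PD-1, was at 144, 144 and 148 TPM against 189, 197 and 196. Tigit, another inhibitory receptor, was at 96.4, 108 and 115 TPM against 144, 132 and 131. All libraries labelled shMogat1 were above all shCTRL libraries for these 3 receptors.

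Ctla4 rose by 0.65 (SE 0.048, adjusted p = 3.49e-05), Pdcd1 by 0.42 (SE 0.032, adjusted p = 4.22e-05) and Tigit by 0.35 (SE 0.068, adjusted p = 0.00473) on the log2 scale. Tox, a transcription factor of exhausted cells, rose from 22.8 ± 0.328 to 28 ± 0.937 TPM (adjusted p = 0.0022). With the time course spread the adjusted p was 0.0255 for Ctla4, 0.3 for Pdcd1, 0.186 for Tigit and 0.377 for Tox, so that of these 4 genes Ctla4 alone passed.

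Havcr2, which encodes TIM-3, and Lag3, a receptor for MHC class II, were lower. Havcr2 was at 40.8, 39.2 and 41.1 TPM against 25.8, 24.2 and 25.3, and Lag3 at 58.7, 57 and 56.5 TPM against 33.6, 36.2 and 31.2. The groups stood apart in both. Havcr2 fell by 0.66 (SE 0.045, adjusted p = 2.39e-05) and Lag3 by 0.76 (SE 0.057, adjusted p = 4.03e-05) on the log2 scale, and neither passed with the time course spread (adjusted p = 0.184 and 0.139). TIM-3 is also made by macrophages and dendritic cells. Eomes, a transcription factor of memory and exhausted CD8 T cells and of natural killer cells, fell from 65.8 ± 3.57 to 46 ± 1.78 TPM (adjusted p = 0.000183, and 0.138 with the time course spread). The marked gene Cd200, a surface ligand at 399.8 and 454 TPM in the tumor cells labelled shCTRL and shMogat1, fell from 103 ± 3.29 to 52.3 ± 2.78 TPM.

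**Figure D4:**
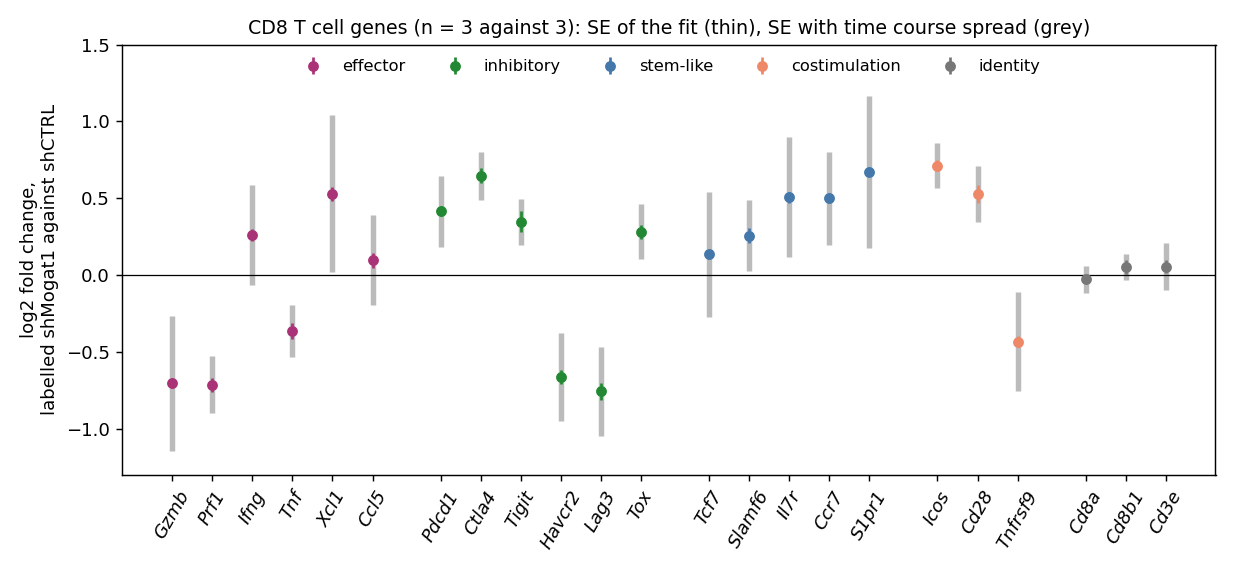
Log2 fold change under the label shMogat1 against shCTRL (3 against 3 CD8 T cell libraries) of named CD8 T cell genes grouped by role, with the SE of the fit as the thin bar and the SE with the time course spread as the grey bar. Pdcd1, Ctla4, Tigit and Tox lie above 0 and Havcr2 and Lag3 below 0.

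Stem-like, naive and memory genes rose together by small amounts. Of 22 tested 16 rose and 3 fell, with a median of 0.28 against -0.05 over all genes, and the 3 that fell (Id3, Igfbp4 and Actn1) were marked. Of the 18 unmarked members 16 rose and 0 fell, where 25.6% of all unmarked genes rose. S1pr1, the receptor by which T cells leave tissue, was at 250.5, 259 and 250.3 TPM in shCTRL and 411, 403 and 401 TPM under the label shMogat1. Ccr7, a receptor for homing to lymph nodes, was at 539.6, 541 and 551 TPM against 743, 785 and 782. Il7r, the interleukin-7 receptor, was at 242, 253 and 234 TPM against 342, 345 and 351. The groups did not overlap for these 3 genes.

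S1pr1 rose by 0.67 (SE 0.029, adjusted p = 2.53e-06), Ccr7 by 0.50 (SE 0.031, adjusted p = 1.56e-05) and Il7r by 0.51 (SE 0.035, adjusted p = 2.63e-05) on the log2 scale. Slamf6, a marker of stem-like exhausted cells, rose by 0.26 (adjusted p = 0.00337). The defining factor Tcf7 rose by 0.13 (641 ± 7.7 to 703 ± 9.52 TPM, adjusted p = 0.00507). Of the 22 genes 0 rose and 2 fell with the time course spread. When a share of the tumor profile was subtracted, 11 rose and 2 fell, and Tcf7 turned to -0.01.

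In the time course 15 of 22 tested genes of this list were lower at week 4 than at week 2 and 0 were higher, with a median of -1.17, where 17.5% of all genes were called, 7.18% lower and 10.3% higher. Tcf7 averaged 1046 TPM at week 2 and 380.3 at week 4 there, and S1pr1 619.8 and 171 TPM. Of 22 inhibitory and exhaustion genes 12 were higher at week 4 and 1 lower (median 1.02), and of 16 killing genes 9 were higher and 0 lower (median 1.12). The knockdown set and the time course share no library, their tables were scaled separately, and the difference between these comparisons was not tested.

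**Figure D5:**
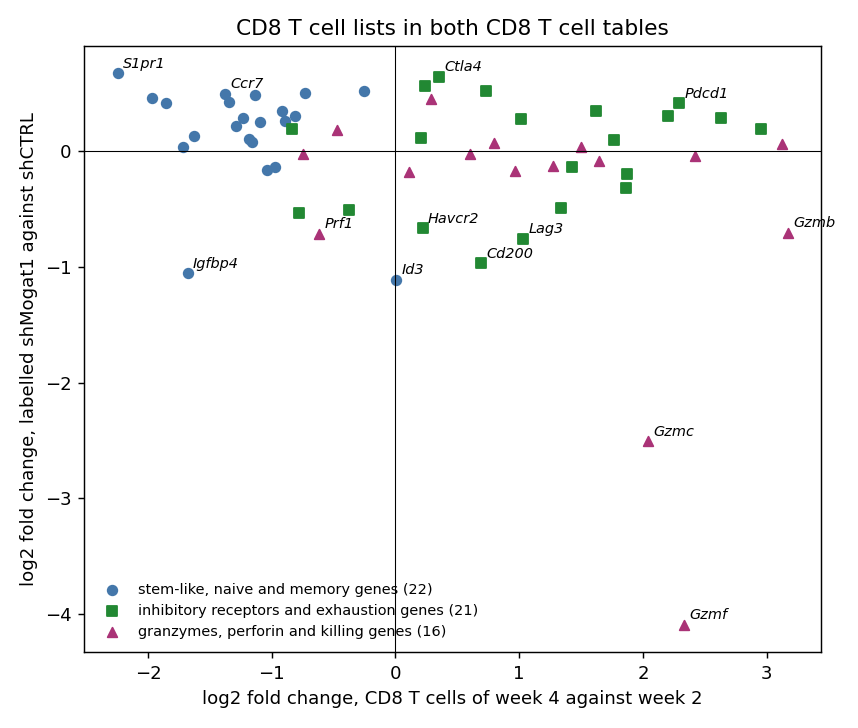
Log2 fold change under the label shMogat1 against shCTRL on the y axis and of week 4 against week 2 on the x axis, 1 point per gene, for the genes of 3 CD8 T cell lists tested in both tables. Most stem-like genes are higher under the label shMogat1 and lower at week 4, while inhibitory genes fall on both sides of 0 under the label.

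Of 13 tested costimulatory receptors 9 rose and 1 fell, with a median of 0.34. Over all genes 16.6% rose and 26.2% fell, and over all unmarked genes 25.6% and 11.1% did. The balance of the receptors was not kept: the counts were 3 and 3 after subtraction of a share of the tumor profile, 4 and 1 of 12 without marked genes and 1 and 0 with the time course spread. Icos, an inducible member of the CD28 family, was at 87, 93.3 and 92.2 TPM in shCTRL and 147, 151 and 151 TPM under the label shMogat1. Cd28 itself, the main costimulatory receptor, was at 116, 134 and 134 TPM against 184, 179.9 and 190.3. The groups did not overlap in either. Icos rose by 0.71 (SE 0.037, adjusted p = 5.75e-06, and 0.00974 with the time course spread) and Cd28 by 0.53 (SE 0.058, adjusted p = 0.000279, and 0.106) on the log2 scale. Tnfrsf9, which encodes the activation-induced receptor 4-1BB, was the 1 that fell, from 121 ± 3.54 to 89.2 ± 2.34 TPM (0.458 with the time course spread).

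Among 15 homing and residency genes 8 rose and 4 fell, where 16.6% of all genes rose and 26.2% fell. The counts were 5 and 6 after the subtraction and 2 and 1 with the time course spread. Cxcr4, the chemokine receptor for CXCL12, was at 232, 233 and 232 TPM against 435, 434 and 423, with the groups far apart. It rose by 0.89 on the log2 scale (SE 0.027, adjusted p = 5.02e-07, and 0.0355 with the time course spread). Among 23 cytokine receptors 10 rose and 8 fell, beside the same shares over all genes. With the time course spread 1 of these receptors rose and 2 fell. Il21r, the receptor for interleukin-21, rose from 273 ± 7.8 to 407 ± 6.97 TPM (adjusted p = 8.66e-06, and 0.00783 with the time course spread). The marked gene Il1rl1, the receptor for interleukin-33, fell from 145 ± 11 to 44.8 ± 0.546 TPM. It stood at 858 and 405 TPM in the tumor cells labelled shCTRL and shMogat1. When a share of the tumor profile was subtracted, it turned to a log2 difference of 2.86 (adjusted p = 2.45e-05). The subtracted means were 0 TPM in shCTRL and 6.27 TPM under the label shMogat1. Values below 0 were set to 0 there, so this turn lies at the floor and is not read as a rise.

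Activation genes downstream of the T cell receptor were divided by the mark, as all genes were. Of the 15 unmarked genes 9 rose and 3 fell, while of the 8 marked genes 6 fell and 0 rose. Over all unmarked genes 25.6% rose and 11.1% fell, and over all marked genes 6.8% rose and 42.6% fell. With the time course spread 0 of the 23 activation genes rose and 1 fell. Nr4a3, a nuclear receptor switched on by receptor signalling, was at 166, 177 and 176 TPM in shCTRL and 270.4, 267 and 277 TPM under the label shMogat1. It rose by 0.65 (SE 0.036, adjusted p = 8.13e-06, and 0.143 with the time course spread). Its marked relative Nr4a1 fell from 262 ± 3.99 to 172 ± 1.65 TPM and the marked transcription factor gene Egr3 from 33.5 ± 1.21 to 20.5 ± 0.411 TPM, and both also fell in the tumor cells labelled shMogat1. Neither was called with the time course spread (adjusted p = 0.0524 and 0.0833), and Egr3 turned to 1.08 (adjusted p = 0.00268) after the subtraction. The subtracted means of Egr3 were 5.69 TPM in shCTRL and 12.9 TPM under the label shMogat1. Irf8, a transcription factor of dendritic cells, macrophages and activated CD8 T cells, was at 99.6, 94.6 and 99.2 TPM against 44.5, 42.5 and 39.8, with no overlap. It fell by 1.19 on the log2 scale (SE 0.049, adjusted p = 2.06e-06, and 0.0403 with the time course spread).

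Among effector fate genes 4 of 18 rose and 8 fell, with 4 rises and 1 fall among the 9 unmarked ones, and 1 rose and 8 fell after the subtraction. Over all unmarked genes 25.6% rose and 11.1% fell. Receptors of the natural killer lectin type, which effector CD8 T cells share with natural killer cells, fell in 7 of 15 cases and rose in 3 (median -0.12), where 26.2% of all genes fell. The counts were 6 and 0 after the subtraction, 4 and 2 with a replicate block and 2 and 0 with the time course spread. Klra5, of the Ly49 family, was at 25.5, 31 and 26 TPM in shCTRL and 5.97, 8.41 and 5.43 TPM under the label shMogat1, with no overlap. It fell by 1.92 on the log2 scale (SE 0.15, adjusted p = 4.02e-05, and 0.0213 with the time course spread), and the split of reads among the similar Klra genes is uncertain. Klrd1, which encodes CD94, fell from 320.4 ± 29.7 to 248 ± 5.72 TPM (adjusted p = 0.00285, and 0.137 with the time course spread) and Klre1 from 22.5 ± 0.431 to 15.9 ± 0.0689 TPM (adjusted p = 0.000176, and 0.252). Of the natural killer cell genes given above 6 of 11 fell and 2 rose (1 and 0 with the time course spread), and their part in these falls was not tested.

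Of 48 tested interferon-stimulated genes 28 fell and 6 rose, with a median of -0.20, where 26.2% of all genes fell. Among the 39 unmarked ones 21 fell and 6 rose, where 11.1% of all unmarked genes fell and 25.6% rose. Mx1, an antiviral GTPase, was at 77.8, 76.4 and 79 TPM in shCTRL and 39.8, 40.2 and 39.2 TPM under the label shMogat1. Usp18, which removes ISG15 from proteins, was at 54.7, 60.8 and 55.1 TPM against 28.8, 28.5 and 26.4. The groups did not overlap in either gene.

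Mx1 fell by 0.95 (SE 0.035, adjusted p = 1.19e-06) and Usp18 by 1.00 (SE 0.057, adjusted p = 1.01e-05) on the log2 scale, and both passed with the time course spread (adjusted p = 0.00733 and 0.00453). With that spread 5 of the 48 genes fell and 0 rose. In the tumor cells labelled shMogat1 43 of 47 tested genes of the list rose and 2 fell. Cxcl9, a chemokine induced by interferon-gamma, rose from 21.8 ± 0.946 to 40.9 ± 0.793 TPM in the T cells (adjusted p = 0.376 with the time course spread). Of 15 genes of MHC class I presentation 10 fell and 1 rose, where 26.2% of all genes fell and 16.6% rose. With the time course spread 1 of the 15 fell and 0 rose. Psmb9, an immunoproteasome subunit, was at 229, 218 and 230.1 TPM against 167, 169 and 167 (adjusted p = 3.94e-05, and 0.0322 with the time course spread).

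Most cell cycle genes fell, and most of them were marked, as were 2808 of all 3599 genes that fell. Of 29 tested genes of G2 and M phase 25 fell and 2 rose, and of 27 S phase genes 22 fell and 0 rose. With the time course spread 2 and 0 of them fell. The mark covered 27 and 21 of them, and the unmarked G2 and M phase genes were the 2 that rose. Over all marked genes 42.6% fell. Mki67, a marked gene and the usual index of proliferation, was at 60.3, 66.2 and 61.3 TPM against 36.4, 36 and 34.2, and at 95.9 and 106 TPM in the tumor cells labelled shCTRL and shMogat1. It fell without overlap by 0.80 on the log2 scale (SE 0.049, adjusted p = 1.46e-05, and 0.0626 with the time course spread). Ccnb2, a marked mitotic cyclin, fell from 47.1 ± 2.59 to 25 ± 0.783 TPM (0.0286 with the time course spread). After subtraction of a share of the tumor profile 20 of the G2 and M phase genes still fell and 2 rose, and Mki67 had a log2 difference of -0.94 (adjusted p = 0.000126).

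Among metabolic lists, 14 of 25 glycolysis genes fell and 3 rose, with 20 marked and 0 of the unmarked ones falling. Nuclear subunits of oxidative phosphorylation fell in 16 of 41 cases and rose in 0, and all 16 that fell were among the 33 marked members, a share near the 42.6% of all marked genes that fell. With the time course spread 2 glycolysis genes and 0 of these subunits fell. Eno1, the marked glycolytic enolase, was at 506, 463 and 480.0 TPM against 370.5, 365 and 371 (adjusted p = 0.000137, and 0.084 with the time course spread). Lipid synthesis and storage genes rose in 7 of 27 cases and fell in 3, where 16.6% of all genes rose and 26.2% fell. With the time course spread 1 of the 27 rose and 0 fell. Dgat1, the enzyme that turns diacylglycerol into triacylglycerol, was unmarked and stood at 86.9, 99.5 and 98.3 TPM in shCTRL and 148, 152 and 147 TPM under the label shMogat1, without overlap. It rose by 0.65 on the log2 scale (SE 0.053, adjusted p = 6.23e-05, and 0.0315 with the time course spread) and was at 32.1 and 28.5 TPM in the tumor cells labelled shCTRL and shMogat1.

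Cholesterol synthesis genes rose in 7 of 23 cases and fell in 4, and in 10 and 0 after the subtraction. Over all genes 16.6% rose and 26.2% fell. Stard4, a sterol carrier, rose from 21.5 ± 1.32 to 31 ± 0.75 TPM (adjusted p = 0.000293, and 0.00424 with the time course spread), and Insig1, which holds the sterol sensor in the endoplasmic reticulum, from 42.6 ± 3.9 to 60.4 ± 3.07 TPM (adjusted p = 0.00108, and 0.0249). Genes of fatty acid uptake and oxidation fell in 9 of 24 cases and rose in 4, with 17 marked. The marked fatty acid transporter gene Slc27a1 was at 16.9, 17.2 and 18.7 TPM against 8.67, 8.92 and 9.18 (adjusted p = 2.96e-05). Cytosolic ribosomal protein genes, 0 of them marked, rose in 11 of 51 cases and fell in 2, where 25.6% of all unmarked genes rose and 11.1% fell. The rises among them are thus no more than the share over all unmarked genes, and the counts were 1 and 9 without marked genes and 0 and 0 with the time course spread.

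The largest unmarked rises were led by epithelial and myeloid genes. The 12 largest among called, unmarked genes without overlap and of 5 TPM or more in the higher group were Krt14, Krt17, Epcam, Retnla, Krt5, Trf, Mir29a, Ear2, Chil3, Chil1, Ly6i and Col9a3. Krt14, a keratin of basal epithelium, was at 0.707, 0.229 and 0.169 TPM in shCTRL and 10.7, 10.9 and 11.3 TPM under the label shMogat1. Epcam, which joins epithelial cells to each other, was at 4.24, 2.82 and 4.57 TPM against 28.3, 29.7 and 30.3. Retnla, a secreted product of alternatively activated macrophages, was at 1.68, 2.63 and 1.58 TPM against 22.8, 16.9 and 14. In each case every library labelled shMogat1 was above every shCTRL library.

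The log2 fold changes were 3.15 for Krt14 (SE 0.15, adjusted p = 4.28e-06), 2.66 for Epcam (SE 0.14, adjusted p = 5.36e-06) and 2.66 for Retnla (SE 0.19, adjusted p = 3.13e-05). Their adjusted p with the time course spread was 0.00034, 9.27e-05 and 0.00628. Krt14 met the filter on low values only through the libraries labelled shMogat1. In the tumor cells Krt14 averaged 0.341 TPM in shCTRL and 8.18 under the label shMogat1, and Epcam 0.692 and 29.6 TPM. These epithelial genes carried no mark because their tumor mean did not exceed their T cell mean. Mir29a is the row of a microRNA gene, and libraries made from mRNA do not measure its mature form. Reads of the similar Ear2, Chil3 and Ly6i family members may be split uncertainly.

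The 5 largest marked rises were Lcn2, Wfdc18, Csn3, Igfbp5 and Krt8, most of them genes of mammary epithelium. Lcn2, lipocalin 2, was at 7.13, 2.42 and 3.06 TPM against 175, 185 and 176, and at 11.7 and 253 TPM in the tumor cells labelled shCTRL and shMogat1. Csn3, the milk protein kappa-casein, was at 0.311, 0.374 and 0.315 TPM against 28.1, 30.9 and 28.1, and at 0.317 and 46.9 TPM in those tumor cells. Krt8, a keratin of luminal epithelium, was at 2.02, 2.07 and 2.45 TPM against 31.5, 34.3 and 33.7, and at 1.45 and 39.7 TPM in them. The groups did not overlap in these 3 genes.

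The 12 largest unmarked falls were Gzmd, Gzmf, Gzme, Fcrl6, Gzmg, Gzmc, Klk1, Tpsab1, Siglech, Mcpt1, Mcpt2 and Cox6a2. Fcrl6, an MHC class II receptor of cytotoxic lymphocytes, was at 11.6, 13.5 and 11.5 TPM in shCTRL and 1.2, 1.38 and 0.881 TPM under the label shMogat1 (420, 354 and 412 reads against 35, 36 and 24). The groups were far apart. It fell by 2.62 on the log2 scale (SE 0.12, adjusted p = 2.98e-06, and 3.09e-05 with the time course spread), and averaged 0.235 TPM at week 2 and 1.41 at week 4 of the time course. As with Gzmd, the shCTRL libraries held the higher level, and at so low a level the time course could add little spread. Passing with that spread is thus no further support for Fcrl6.

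Further falls were in single markers of rarer cells, whose lists are given above. Siglech, a lectin of plasmacytoid dendritic cells, was at 27.6, 29.5 and 27.6 TPM against 4.42, 3.97 and 5.59. Flt3, a receptor of dendritic cells, was at 5.84, 6.04 and 6.63 TPM against 1.1, 1.12 and 0.942. Tpsab1, a mast cell tryptase, was at 14.9, 13.3 and 16.6 TPM against 2.1, 1.18 and 2.44. The libraries of the groups did not overlap in these 3. Mcpt1 and Mcpt2, mast cell proteases that resemble other family members, fell too. Siglech, Flt3, Klk1 and Cox6a2 did not pass with the time course spread (adjusted p = 0.229, 0.159, 0.18 and 0.109), and Tpsab1, Mcpt1 and Mcpt2 did (adjusted p = 0.00574, 0.00341 and 0.000579). The SE with that spread differed by gene (1.13 for Siglech and 0.297 for Mcpt2), so passing does not rank these genes.

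The 5 largest marked falls were Angptl7, Dio2, Notum, Inmt and Itgbl1. Dio2, the enzyme that activates thyroid hormone, was at 30.9, 30.7 and 30.5 TPM against 3.46, 3.43 and 3.56, and at 127 and 41.2 TPM in the tumor cells labelled shCTRL and shMogat1. Dcn, the matrix protein decorin, was at 595, 596 and 596 TPM against 125, 121 and 119, and at 2749 and 573 TPM in those tumor cells. All 6 of these genes were lower in both tables under the label shMogat1. The 5 largest marked falls passed with the time course spread, and Dcn did not (adjusted p = 0.0816). The SE with that spread was 0.133 for Notum to 0.357 for Itgbl1 among the 5 and 0.732 for Dcn. Passing depends on how far a gene varied in the time course and does not rank the 5 above Dcn.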

How the data were processed

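RNA was sequenced from CD8 T cells and tumor cells of MMTV-PyMT xenografts, 1 library per sample, from stranded mRNA libraries per the labels' protocols. The authors deposited a table of TPM values (reads scaled for gene length and library total) for each experiment. Trim Galore, FastQC and HISAT2 with mm10 are named in the submitters' processing notes, and the read counter, its annotation and its use of strand are not given in the sources used here. Each table held 33681 rows, of which 27 had gene symbols turned into dates and were left out (at most 0.184% of TPM). Genes of 1 TPM or more in at least 3 of the 6 libraries were tested on log2(TPM + 1) with limma 3.58.1 in R 4.3.3 (moderated test with a mean trend, Benjamini-Hochberg adjustment over all genes tested, threshold 0.05). The tables were each fitted alone, since they were scaled separately.

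Libraries were grouped by their labels, 3 against 3. The members and the 41 gene lists were chosen with earlier results of these data known. Named are the 12 largest unmarked and 5 largest marked changes each way (called, no overlap, 5 TPM or more in the higher group, no predicted genes or receptor segments), up to 4 called members of each list with the smallest adjusted p, and a fixed set of T cell and other cell markers. Other genes are named only as members of a list, and 2 genes that the rule names are not reported here. Whole reads were recovered from the TPM steps of 18588 genes, in which 36.3% to 38.6% of TPM fell in the 6 T cell libraries, with depths of 0.892 to 1.24 relative to shMogat1 replicate 1. They served only to give the reads behind low genes and the variance between replicates relative to counting error, and total depth is not known from TPM. T cell receptor and immunoglobulin constant genes and symbols with a hyphen were matched only where a row had that name. Promoter sequences are RefSeq's on GRCm38.p6, and transcripts for the identities are GENCODE vM21, aligned with Biopython 1.88. The fits were tested on simulated data. Alternatives were another pseudocount, other filters, scalings and weights, a replicate block, leaving out each library and leaving out marked genes. Added after seeing the data were the spread over 15 libraries, the count at 2-fold and subtraction of a share of the tumor profile of the same label, set at the 1st percentile of the ratio between the tables. The labels do not pair the libraries, and the groups share the numbers 1 and 3 only.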

Additional observations from a re-analysis of the deposited data

Results flagged for a closer look

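Named genes were flagged if called in opposite directions in the CD8 T cells and the tumor cells of the same labels, without overlap in either. A log2 difference of at least 0.5 and 5 TPM or more in the higher group were also required in both. These cuts left 5 genes. Mean levels of other named genes, such as Dgat1, Mki67 and Cd200, also went opposite ways without meeting them. The difference between the tables, which were scaled separately, was not tested. Irf8, the interferon regulatory factor of dendritic cells, macrophages and activated T cells, had a log2 difference of -1.19 in the T cells labelled shMogat1 and 0.51 in the tumor cells. Mx1, an antiviral GTPase, was at -0.95 and 0.74. The marked gene Hspb1, a small heat shock protein, was at -0.88 and 0.66, and Blnk, an adaptor of B cell and macrophage receptors, at -0.53 and 1.74. In the T cells neither was called with the spread of the 15 CD8 T cell libraries (adjusted p = 0.173 for Hspb1 and 0.717 for Blnk), nor was Nr4a3 (0.143). Nr4a3, a nuclear receptor induced by T cell receptor signalling, was the 1 gene of these 5 that was higher in the T cells (0.65) and lower in the tumor cells (-2.25).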

How the results depend on the processing

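Of 13742 genes, 5878 were called in the CD8 T cells. The count was 2103 (973 higher, 1130 lower) when marked genes were left out and the rest rescaled, 3880 (1701 higher, 2179 lower) when a share of the tumor profile was subtracted, and 941 with the spread of the 15 CD8 T cell libraries, where 3191 genes had an unadjusted p under 0.05. Leaving out 1 library each gave 4620 to 5465 genes. The 477 genes changed at least 2-fold became 784 with a pseudocount of 0.1, 316 with a filter of 5 TPM and 153 without marked genes, and 413 to 454 without 1 library each. The 3256 called genes with a mark were 611 under the strict mark. In the time course 2335 genes were called, 5910 with array weights and 928 to 3115 without 1 library each (1103 without week 4 replicate 2, 1161 without week 4 replicate 3, 950 without week 2 replicate 1 and 928 without week 2 replicate 2). The tumor cell count of 7052 was 5842 to 6369 without 1 library each.

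With a replicate block the counts were 4003 (1549 higher, 2454 lower) in the CD8 T cells, 6709 in the tumor cells and 1422 in the time course. The CD8 groups share 2 numbers, and the deviations of same-numbered libraries correlated at 0.05 and 0.03. Other pairs between the groups ran from -0.102 to 0.0796. With 2 such pairs the values cannot decide whether same-numbered libraries share more than a number.

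Of the 191 named genes tested, 124 were no longer called with the spread of the 15 libraries and 67 kept their call or their lack of one. Subtraction of the tumor profile turned 12 of them: Areg (log2 difference 1.31), Atf3 (0.135), Egr3 (1.08), Ier3 (0.271), Il1rl1 (2.86), Klf4 (0.106), Klra4 (0.853), Lat (-0.0104), Lyz2 (-0.0341), Spp1 (0.0615), Tcf7 (-0.0141) and Vegfa (0.0444). Values below 0 after the subtraction were set to 0, and Il1rl1 then averaged 0 TPM in shCTRL. Quantile normalization turned Lyz2 (-0.00927). The cause of these shifts was not tested beyond what each alternative changes. Genes of a few reads, Mogat1 among them, were below what this depth resolves.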
